A study of Mus musculus with 20 samples.

Results

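Long noncoding RNAs (lncRNAs) with a clear signal in mouse liver were the 252 genes that 2 deposited tables annotate as lncRNA and give a mean of 100 or more normalized counts in both, out of 9431 genes with that annotation and 54325 genes in all. Each table covers 1 diet. Members were chosen by annotation and by this mean over libraries alone, so their abundance is not a finding. The samples were livers of C57BL/6 mice in 4 groups of 5 per the labels. Mice fed without methionine and choline (the MCD diet, disease state given as NASH) received an antibody against acyl-CoA binding protein (anti-ACBP) or an IgG antibody. Mice on regular chow (disease state given as healthy) received anti-ACBP or IgG too. Sex, age, dose and time were not given in the sources used here. The tables hold group means only, so the values of single livers, and whether groups overlap, cannot be shown.

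A lncRNA is a transcript that is long, usually spliced and polyadenylated like a messenger RNA, and not known to be translated. Some act in the nucleus as scaffolds of nuclear bodies, others are mainly the carriers of small nucleolar RNAs (snoRNAs) or microRNAs that are cut from their introns or exons, and many lie opposite or beside a coding gene whose promoter or chromatin they share. In liver, lncRNAs tend to be more restricted to 1 cell type than coding genes are. Hepatocytes, macrophages and stellate cells in a bulk sample all contribute to a lncRNA's count, and fewer cells of a type cannot be told apart from less of the RNA per cell.

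The group columns summed to 39398190 (MCD, anti-ACBP), 34621779 (MCD, IgG), 35093280 (chow, anti-ACBP) and 38600264 (chow, IgG) normalized counts. Hepatocyte markers dominated all 4 groups, as the tissue label says. On MCD, 5 of 6 hepatocyte markers rose with anti-ACBP, 6 of 8 macrophage markers fell (summed level 7073 normalized counts with anti-ACBP and 22949 with IgG) and 7 of 7 stellate and myofibroblast markers fell (5462 and 12300). On chow, 1 hepatocyte marker rose and 1 fell, none of 7 macrophage markers tested passed the threshold (summed level 4784 with anti-ACBP and 5584 with IgG), and of 7 stellate markers 1 rose and 3 fell (2429 and 2745). The neutrophil gene Ly6g was near 0 in all 4 groups (0 with anti-ACBP and 2.08 with IgG on MCD, 0.26 in both chow groups) and had no test. The other neutrophil genes listed, S100a8 and S100a9, had 41.4 and 53.9 normalized counts in MCD livers with anti-ACBP and 104.6 and 139.7 with IgG. The part of these shifts in the lncRNA values below was not tested.

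The 252 lncRNAs took 0.672% of the column total in MCD livers with anti-ACBP, against 0.966% in MCD livers with IgG. Their shares on chow were 0.663% with anti-ACBP and 0.658% with IgG. A single gene, Neat1, made up 4.57% of the lncRNA counts in MCD livers with anti-ACBP and 22.2% in MCD livers with IgG. Without Neat1 the shares of the column total were 0.641% and 0.751% on MCD. The typical member ran the other way: the median member had 288.2 normalized counts in MCD livers with anti-ACBP and 203.4 in MCD livers with IgG, against 249.8 and 247.3 in chow livers with anti-ACBP and IgG.

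Set per kilobase of annotated exon, Gm42418 stood first with 15925, 12924, 18494 and 18667 normalized counts per kilobase in the MCD anti-ACBP, MCD IgG, chow anti-ACBP and chow IgG groups. Gm42418 has a ribosomal RNA gene name (Rn18s-rs5) as a synonym, and its changes with the antibody did not pass the threshold on either diet. Gm43305 and BC024386 followed. Neat1 had 583, 3581, 474 and 863 normalized counts per kilobase in the same 4 groups, and Malat1 1495, 1633, 962 and 1267. Over the annotated lengths (20.771 kb for Neat1 and 6.983 kb for Malat1), Neat1 exceeded Malat1 only in the MCD IgG group. By total count Neat1 was higher than Malat1 in all 4 groups. The order per kilobase rests on the annotated lengths, and the lengths of the transcripts sequenced were not tested.

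On MCD, more of these lncRNAs rose than fell with anti-ACBP. In the authors' deposited table, 102 of 252 lncRNAs passed an adjusted p of 0.05 (40.5%), 75 higher and 27 lower, whereas 30.9% of all 20265 genes tested passed, 14.7% higher and 16.2% lower. The members' median log2 fold change was 0.23, against 0.02 over all genes tested and 0.06 over the 9933 protein-coding genes of the same abundance. Of these coding genes 37.8% were called, 23% higher and 14.8% lower, so they too rose more often than they fell. At least 2-fold changes were called for 22 higher and 3 lower members. The up and down split rests on the scaling: with the 2 column totals set equal, which shifts every log2 fold change by -0.19, 50 rose and 51 fell, and the medians were 0.05 for members and -0.13 for coding genes. With fold changes centred on the median of abundant genes, 64 rose and 34 fell. Of the 252 members, 21 were under 100 normalized counts in the MCD IgG group and 5 in the MCD anti-ACBP group. Such members passed the floor on MCD through the other group, so the split may be partly set by the floor.

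**Figure D1:**
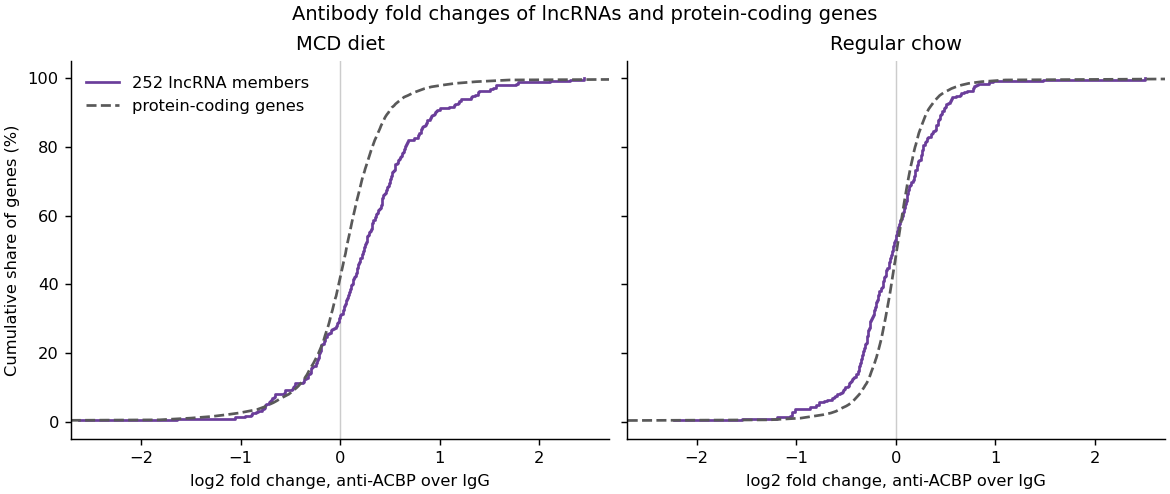
Cumulative share of genes (%) against the log2 fold change, anti-ACBP over IgG, on MCD and on chow, for the 252 lncRNAs (solid) and protein-coding genes with a mean of 100 or more in both tables (dashed, percentiles); the axis ends at 2.7 in both directions. On MCD the lncRNA curve lies to the right of the coding curve (medians 0.23 and 0.06); on chow the curves cross near 0 (medians -0.03 and 0.01).

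Among the nuclear lncRNAs the largest change was in Neat1, the scaffold RNA of the nuclear bodies called paraspeckles. Neat1 averaged 12099 normalized counts in MCD livers with anti-ACBP and 74389.5 in MCD livers with IgG, where it was the most abundant of the 252, a log2 fold change of -2.62 (SE 0.23, adjusted p = 9.91e-28). Its counterpart Malat1, an RNA of nuclear speckles, had 10437 and 11406 normalized counts (log2 -0.13, SE 0.19, adjusted p = 0.668). Tug1 fell by 0.35 on the log2 scale (SE 0.10, adjusted p = 0.00468), to 1179 normalized counts with anti-ACBP against 1500 with IgG. The fold changes of the RNA that binds Pumilio proteins (Norad, listed as 2900097C17Rik, -0.01), of Firre (-0.09) and of Chaserr (listed as 1810026B05Rik, -0.46) did not pass. Of the 9 genes tested on the nuclear and chromatin list 3 fell and none rose, where 16.2% of all genes tested fell; the third was Pvt1, which is below the abundance floor here (61.5 normalized counts with anti-ACBP and 143.3 with IgG).

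The lncRNAs that rose most on MCD were Gm15998, Gm15287 and Gm16551. Gm15998 averaged 190.5 normalized counts with anti-ACBP and 34.8 with IgG (log2 2.45, SE 0.40, adjusted p = 2.43e-08). Gm15287 had 610.4 and 123.2 (log2 2.31, SE 0.32), and Gm16551, reported in mouse liver to restrain fat synthesis, had 266.5 and 62.1 (log2 2.10, SE 0.38). In the separately scaled chow table all 3 had higher means in both groups than in MCD livers with IgG: 188.9 and 381.0 for Gm15998 in chow livers with anti-ACBP and with IgG, 723.0 and 899.8 for Gm15287, and 353.7 and 387.9 for Gm16551.

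Next in size on MCD were 1700018L02Rik (log2 1.79), 1700028E10Rik (1.77), 4930481A15Rik (1.57), C730036E19Rik (1.56), 1810008I18Rik (1.54), Tbx3os1 (1.51) and Gm16348 (1.39), whose SEs ran from 0.14 to 0.33. Tbx3os1 is the transcript opposite the transcription factor gene Tbx3. The largest by level was BC024386, which ranked 3 of the 252 per kilobase, with 13672 normalized counts in MCD livers with anti-ACBP and 5345 with IgG (log2 1.35, SE 0.13, adjusted p = 8.15e-23). These genes overlap the list of lncRNAs known from liver and lipid work. This list and the others were drawn up with earlier results of these data known, so their counts are no independent support. Of its 11 genes tested on MCD 7 rose and none fell, where 14.7% of all genes tested rose, with a list median of 1.01. They included Gm16551, C730036E19Rik, 1810008I18Rik, 0610005C13Rik (6531 and 4612 normalized counts, log2 0.50), 4833411C07Rik (log2 0.68) and the less abundant Hnf4aos (1.42), which lies opposite the hepatocyte transcription factor gene Hnf4a. Gm15441, with 69.2 and 33.9 normalized counts, had a log2 fold change of 1.01 that did not pass (adjusted p = 0.125). Summed hepatocyte markers moved the same way on MCD, at 4194220 normalized counts with anti-ACBP and 3116160 with IgG. Most of each sum was Alb (3118590 and 2348590). On chow the sum was 3208510 with anti-ACBP and 2865470 with IgG, again mostly Alb (2329410 and 1971740), whose change did not pass. Of the other markers Cyp2e1 rose and Serpina1a fell on chow. None of 10 liver and lipid genes tested rose on chow and 1 fell. The part of hepatocyte content in these values was not tested.

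**Figure D2:**
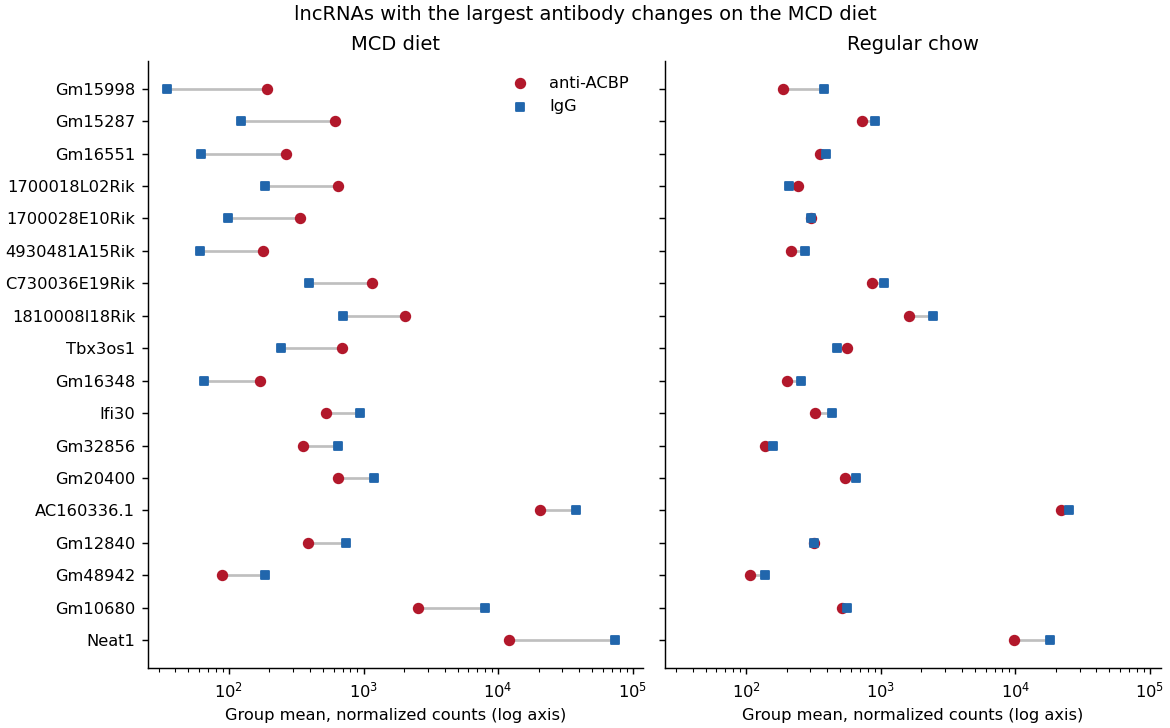
Group means in normalized counts (log axis) on MCD (left) and chow (right) for the 10 lncRNAs that rose most and the 8 that fell most with anti-ACBP on MCD; circles are anti-ACBP, squares IgG, with no error bars because single livers are not in the tables. On MCD the squares of the 10 risers lie between 34.8 and 701.5 counts, below their circles; on chow circles and squares lie close, apart from Gm15998, 1810008I18Rik and Neat1.

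After Neat1, the largest fall on MCD was in Gm10680, at 2551 normalized counts with anti-ACBP and 7966 with IgG (log2 -1.64, SE 0.24, adjusted p = 1.67e-10). Gm10680 overlaps Apoa4, an apolipoprotein gene, on the opposite strand, and Apoa4 fell by 1.57 on the log2 scale. AC160336.1 fell to 20368 normalized counts with anti-ACBP, against 38012 with IgG (log2 -0.90, SE 0.15). Gm48942, Gm12840, Gm20400, Gm32856, Gm8016 and Gm20559 fell by 0.76 to 1.06 on the log2 scale. Ifi30, which carries the name of a lysosomal thiol reductase of antigen-presenting cells although its annotation here is lncRNA, averaged 529.5 and 937.9 normalized counts (log2 -0.82, SE 0.13).

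Immune lncRNAs fell or did not pass. AW112010, an RNA induced in inflamed immune cells, averaged 1980 normalized counts in MCD livers with anti-ACBP and 3112 with IgG (log2 -0.65, SE 0.09, adjusted p = 9.07e-11). Of 8 immune and interferon genes tested on MCD 4 fell and none rose, where 16.2% of all genes tested fell, the others being Gm20559 and the scarcer Mir142hg (-1.39) and F630028O10Rik (-1.82). Of 6 genes on the p53, growth arrest and stress list 4 fell: Neat1, Gas5, Pvt1 and Dnm3os (-0.97), a transcript opposite Dnm3 that carries microRNAs and is known from mesenchymal cells. The macrophage and stellate marker sums given above fell in the same comparison, and their part was not tested. Of 7 imprinted genes tested 1, Airn, fell, a share near that of all genes (28.8 normalized counts with anti-ACBP and 88.7 with IgG); Meg3 had 414.9 and 404.6. No gene of 3 tested near the X inactivation centre passed. Of the ribosomal-like genes AY036118 rose (246.2 and 106.1 normalized counts, log2 1.22, SE 0.34), and Gm42418 and Gm26917 did not pass.

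On chow the antibody moved fewer of these lncRNAs and in both directions. The authors' deposited table gave 51 of 252 (20.2%) under the same threshold, 23 higher and 28 lower, where 12% of all 14618 genes tested passed, 5.58% higher and 6.46% lower. The median was -0.03 for members, 0.0042 for all genes tested and 0.01 for coding genes of the same abundance, of which 14.6% were called. At least 2-fold changes were called for 1 higher and 8 lower members. With column totals set equal, which adds 0.14 to every log2 fold change on chow, 43 rose and 17 fell. At the stricter threshold of 0.01, 31 members remained.

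The largest rises on chow were in Gm22146, Snhg3, Gm48275, 4921516A02Rik, Gm19950 and Gm17092. Gm22146 averaged 198.2 normalized counts in chow livers with anti-ACBP and 71.2 with IgG (log2 1.48, SE 0.33, adjusted p = 0.000301). It overlaps Fkbp5, a glucocorticoid-induced gene, on the opposite strand, and Fkbp5 rose by 0.67. The GENCODE M21 annotation types Gm22146 as miscellaneous RNA, with 0.288 kb of exon. Snhg3 had 302.1 and 153.1 normalized counts (log2 0.98, SE 0.26), and the log2 fold changes of the other 4 ran from 0.79 to 0.93. Gm28037 had a higher fold change (2.51) but an SE of 1.20 and did not pass (367.0 and 64.5 normalized counts, adjusted p = 0.172).

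Of the members that fell on chow, BC049987 changed most, with 105.5 normalized counts with anti-ACBP and 494.6 with IgG (log2 -2.23, SE 0.57, adjusted p = 0.00200). Gm31583 had 612.9 and 1786 normalized counts (log2 -1.54, SE 0.27, adjusted p = 1.66e-06). Gm31182, Gm2788 and B230206H07Rik followed with log2 fold changes from -1.07 to -1.04 and SEs of 0.17 to 0.29, and Gm8016 and Gm15998 fell by 1.04 and 1.01. Neat1 fell on chow too, at 9836 normalized counts with anti-ACBP and 17919 with IgG (log2 -0.87, SE 0.19, adjusted p = 0.000238), as did AW112010 (1512 and 2033, log2 -0.43, SE 0.08, adjusted p = 4.83e-06).

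On chow the calls of the other lists were read against the 5.58% of all genes tested that rose and the 6.46% that fell. Of 8 nuclear and chromatin genes tested 2 fell (Neat1 and Pvt1), which are also the 2 of 5 that fell on the p53, growth arrest and stress list. AW112010 was the 1 of 4 immune genes that fell, and 1810008I18Rik (1631 normalized counts with anti-ACBP and 2452 with IgG, log2 -0.59, SE 0.17) the 1 of 10 liver and lipid genes. Peg13 (192.1 and 143.4, log2 0.42, SE 0.14) was the 1 of 5 imprinted genes that rose. No gene passed of 2 tested near the X inactivation centre or of the 3 ribosomal-like ones.

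The antibody effect differed between the diets for 79 of 252 lncRNAs (31.3%), tested as the difference of the 2 log2 fold changes over their joint SE, whereas 23.2% of 14607 genes tested in both tables passed. The effect was higher on MCD for 58 members (23%, against 12.6% of all genes) and lower for 21 (8.33%, against 10.6%). Of 9929 coding genes of the same abundance 24.5% passed, 14.8% higher and 9.71% lower, so these too were more often higher on MCD. With column totals set equal the members split into 35 higher and 52 lower. Of the 27 members called on both diets, 7 rose on both, 8 fell on both, 9 rose on MCD and fell on chow, and 3 fell on MCD and rose on chow. The shares of all genes with these patterns were not computed. The counts therefore describe the members and cannot be called particular to lncRNAs. Across the 252 genes the log2 fold changes of the 2 diets had a Pearson r of 0.08 and a Spearman rho of 0.07; no samples are shared between the 2 comparisons, and genes are not replicates.

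The 9 members that rose on MCD and fell on chow were BC024386, 1810008I18Rik, AI480526, Gm31583, 4732465J04Rik, Gm2788, Gm16548, Gm17753 and Gm15998. The difference was largest for Gm15998, at 3.46 (SE 0.47, adjusted p = 3.07e-11), and for Gm31583, at 2.93 (SE 0.40, adjusted p = 1.62e-11). Gm31583 averaged 416.2 normalized counts in MCD livers with anti-ACBP and 159.1 with IgG, the reverse of the order on chow. BC024386 had 12834 and 15606 normalized counts on chow (log2 -0.28, SE 0.09, adjusted p = 0.0207), a call that was lost with column totals set equal (log2 -0.14). Under that scaling the chow calls of AI480526, Gm16548 and Gm17753 and the MCD calls of AI480526 and Gm17753 were lost too, and 5 of the 9 passed on both diets. The 3 that fell on MCD and rose on chow were Gm19950 (log2 -0.69 and 0.81), 2410006H16Rik (-0.57 and 0.60) and Gm48275 (-0.72 and 0.93); all 3 passed on both diets with column totals set equal. The 8 that fell on both were Neat1, AW112010, Ifi30, BC049987, Gm20634, 4930556M19Rik, B230206H07Rik and Gm8016, and the 7 that rose on both were Snhg8, Gm20528, Gm47162, Gm22146, Gm45051, Gm28229 and Gm16973; with column totals set equal, 6 of these 8 still passed on both diets (Ifi30 and 4930556M19Rik were lost on chow), and of the 7 only Gm45051 did, the others being lost on MCD. Neat1 fell further on MCD than on chow, a difference of -1.75 (SE 0.30, adjusted p = 1.87e-07).

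**Figure D3:**
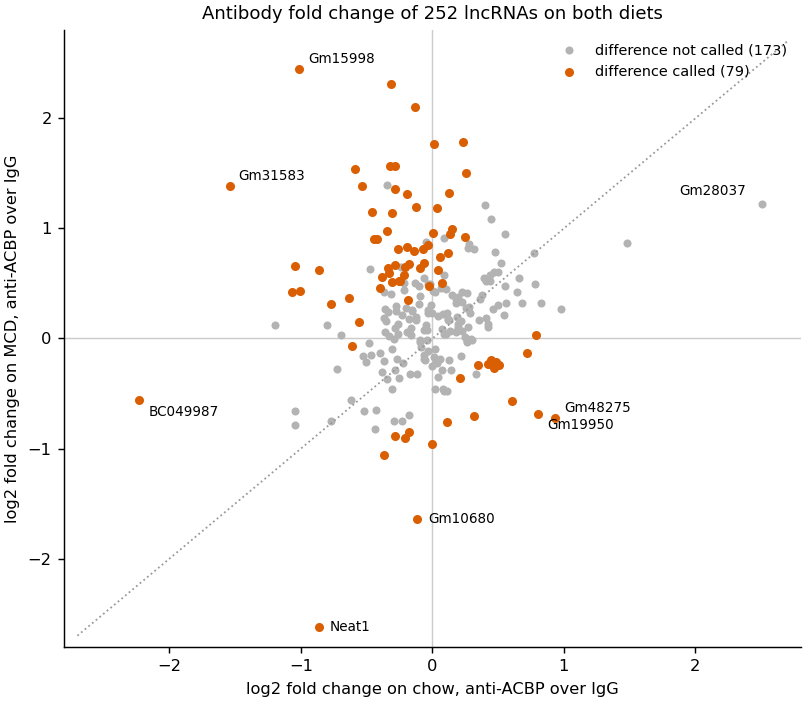
log2 fold change with anti-ACBP over IgG on MCD (vertical) against chow (horizontal) for 252 lncRNAs; orange points are the 79 whose difference between diets passed an adjusted p of 0.05, and the dotted line marks equal changes. Gm15998 and Gm31583 lie at the upper left (higher on MCD, lower on chow), Neat1 and BC049987 at the lower left, Gm48275 and Gm19950 at the lower right; Gm28037 at the far right had a large SE and was not called.

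Of the hosts of snoRNAs, 7 rose and none fell on chow, while 1 rose and 4 fell on MCD. Their spliced exons are by-products of snoRNA production and many start with a run of pyrimidines, as ribosomal protein messages do, which ties their translation and decay to growth signals. By position in GENCODE M21, 17 members contain an annotated snoRNA or scaRNA. RefSeq promoters (build GRCm38.p6) matched 138 of the 252 members and 14 of these hosts. The start sites are shown because the pyrimidine start is the feature these genes are known to share; each line runs 5′ to 3′ from 30 bases before the annotated start to 30 bases after it, with the first CTTT within 15 bases of the start in capitals.
2410006H16Rik (chr11:62602847-62602906, plus strand): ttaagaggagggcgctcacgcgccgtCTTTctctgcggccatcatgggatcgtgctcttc
Gas5 (chr1:161035136-161035195, plus strand): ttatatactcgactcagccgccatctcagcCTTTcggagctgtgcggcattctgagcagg
Snhg12 (chr4:132308648-132308707, plus strand): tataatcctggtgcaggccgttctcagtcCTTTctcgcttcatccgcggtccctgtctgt
Snhg8 (chr3:123508307-123508366, minus strand): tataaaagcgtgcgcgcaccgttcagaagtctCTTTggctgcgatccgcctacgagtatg
Snhg5 (chr9:88522868-88522927, minus strand): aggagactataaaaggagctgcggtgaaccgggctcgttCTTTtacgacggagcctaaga
Snhg1 (chr19:8723457-8723516, plus strand): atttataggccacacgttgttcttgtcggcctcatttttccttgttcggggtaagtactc
Zfas1 (chr2:167062904-167062963, plus strand): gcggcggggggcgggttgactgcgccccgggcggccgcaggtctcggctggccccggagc

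CTTT was searched on the transcript strand only, within 15 bases on either side of the start, a choice made with these sequences in view. It was present at 7 of 17 annotated starts of the snoRNA hosts (41.2%, in 6 of 14 genes), against 12% of all 32851 promoters and 17.7% of 203 promoters of members. The first 5 lines hold it, although Gas5 has a further annotated start without it, and the last 2, Snhg1 and Zfas1, do not. A match describes the letters only. Hosts with and without it were among those that moved.

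On chow 7 of the 17 hosts rose with anti-ACBP and none fell, where 5.58% of all genes tested rose, with a median log2 fold change of 0.29 and 13 of 17 above 0, against a median of 0.0042 over all genes tested. Those that rose were Snhg3, 2410006H16Rik (442.7 normalized counts with anti-ACBP and 291.8 with IgG; log2 0.60, SE 0.13, adjusted p = 7.86e-05), Snhg6 (365.4 and 261.1; log2 0.49), Zfas1 (389.8 and 286.9; 0.44), Snhg1 (385.6 and 287.8; 0.42), Snhg8 (681.3 and 529.5; 0.36) and Snhg12 (378.8 and 297.0; 0.35). Gas5, the most abundant host by total count and an RNA named for its build-up in growth arrest, had 2494 and 2156 normalized counts (log2 0.21, SE 0.08, adjusted p = 0.0775).

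On MCD 4 of the 17 fell and 1 rose, near the 30.9% of all genes tested that were called on that diet (16.2% lower and 14.7% higher), with a median of -0.21 and 7 of 17 above 0. Gas5 fell to 2499 normalized counts with anti-ACBP, against 3205 with IgG (log2 -0.36, SE 0.13, adjusted p = 0.0187), and AI506816 (900.5 and 1518; -0.75), 2410006H16Rik (584.7 and 866.4; -0.57) and Snhg17 (834.3 and 1045; -0.32) fell as well. Snhg8 rose (588.6 and 457.7; log2 0.36, SE 0.13, adjusted p = 0.0264). The difference between diets was called for 6 of the 17 hosts, all lower on MCD: Gas5, 2410006H16Rik, Snhg1, Snhg12, Snhg6 and Zfas1. These differences ran from -0.57 to -1.17 on the log2 scale. Of all 14607 genes tested on both diets, the difference was called for 23.2%, with 10.6% lower on MCD and 12.6% higher. With column totals set equal, 11 hosts rose and none fell on chow, and 10 fell and none rose on MCD. That scaling moves all genes the same ways. Of 9937 abundant coding genes, 2338 then rose and 386 fell on chow, and 932 rose and 3098 fell on MCD. Centred on abundant genes, 7 hosts rose and none fell on chow, and 6 fell and none rose on MCD. Of the coding genes, 641 then rose and 791 fell on chow, and 1700 rose and 1847 fell on MCD. In the list drawn up by name, which includes less abundant genes, 6 of 18 tested rose and none fell on chow; on MCD 2 rose, Snhg8 and Snhg11, which the tables annotate as protein-coding (791.4 and 517.5 normalized counts, log2 0.61), and 3 fell, Gas5, Snhg17 and Snhg18 (91.5 and 179.4, log2 -0.97).

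**Figure D4:**
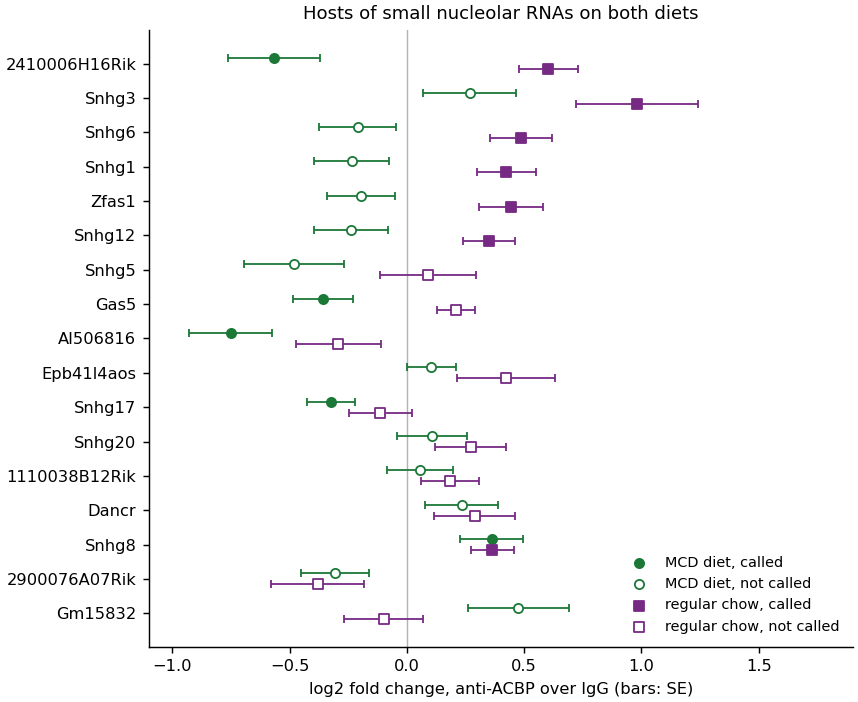
log2 fold change with anti-ACBP over IgG (points) and its SE (bars) for the 17 lncRNAs that contain a snoRNA, on MCD (circles) and chow (squares), ordered by the difference between diets with the lowest on top; filled symbols passed an adjusted p of 0.05. In the top 8 genes, from 2410006H16Rik to Gas5, the MCD symbol lies left of the chow symbol by 0.57 or more.

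Of 14 members that contain an annotated microRNA, 1 rose and none fell on MCD, where 30.9% of all genes tested were called, and 2 rose and 1 fell on chow, where 12% were. Mir22hg averaged 2223 normalized counts in chow livers with anti-ACBP and 1572 with IgG (log2 0.50, SE 0.12, adjusted p = 0.000768), and 1654 and 1336 on MCD (log2 0.31, adjusted p = 0.137). E130102H24Rik had 244.1 and 183.3 on MCD (log2 0.41, SE 0.13, adjusted p = 0.00839), a call lost with column totals set equal (log2 0.22). The mature microRNAs inside these 2 hosts are given from RefSeq (GRCm38.p6) to show what the hosts encode, 5′ to 3′, with the seed (bases 2 to 8), which pairs with targets, in capitals; the libraries measured host transcripts, not mature microRNAs.
miR-22-5p (chr11:75463734-75463755, plus strand): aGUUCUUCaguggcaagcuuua
miR-22-3p (chr11:75463772-75463793, plus strand): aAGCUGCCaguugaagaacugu
miR-101a-3p (chr4:101346957-101346977, minus strand): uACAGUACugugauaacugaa
miR-101a-5p (chr4:101346993-101347014, minus strand): uCAGUUAUcacagugcugaugc

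The 4 seeds differ from each other. 4921516A02Rik rose on chow (211.5 and 119.1 normalized counts, log2 0.83, SE 0.18), and Gm20632 fell (554.8 and 848.5, log2 -0.61, SE 0.12). Dleu2 (hosting miR-15a and miR-16-1), A330023F24Rik (miR-29b-2 and miR-29c) and Mir17hg (the miR-17 to miR-92 cluster) passed on neither diet, with log2 fold changes between -0.02 and 0.27. In the list drawn up by name, 2 of 9 tested fell on MCD, the scarce Mir142hg and Mirt1 (16.6 normalized counts with anti-ACBP and 36.1 with IgG), and 1 of 6, Mir22hg, rose on chow.

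Most members lie close to a coding gene. In GENCODE M21, 247 members had a unique entry: 99 overlapped a protein-coding gene on the opposite strand, 27 overlapped one on the same strand, 25 shared a divergent start within 5 kb, 26 were otherwise within 5 kb and 70 lay farther away. On MCD both the member and its nearest coding gene were called in 32 pairs, 24 in the same direction and 8 in opposite directions. Among the 177 close or overlapping pairs the counts were 18 and 5, and among the 70 distant ones 6 and 3. Across genes the log2 fold changes of both partners had a Pearson r of 0.38 over 169 close pairs with values, 0.57 over the 25 divergent ones and 0.04 over 57 distant pairs. The Spearman rho of the same sets was 0.28, 0.49 and -0.07. Among the divergent partners, Mup19 (beside Gm13775) was listed at 5, the end of the deposited scale. Partners were measured in the same libraries. Some partners entered more than once: Gm20388 (log2 0.70, SE 2.89 on MCD) was nearest to Gm42047, Gm4316, 2810013P06Rik and Fendrr. The share of same-direction calls among neighbours of all genes was not computed, so these counts cannot be called particular to lncRNAs. On chow 13 pairs had both called, 10 in the same direction, with r of 0.35 over 155 close pairs and 0.33 over 45 distant ones (rho 0.32 and 0.25). The libraries were strand-specific per the labels, but whether the counting used strand is not given in the sources used here, so reads of a member and of a gene opposite or around it may be mixed.

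Pairs opposite each other that rose together on MCD included Gm20319 and Il1rap, a receptor subunit of interleukin-1 (log2 0.81 and 1.21), B430119L08Rik and Serpina1c, a protease inhibitor (1.19 and 1.28), Gm26588 and Mgll, which splits monoacylglycerol (1.0 and 0.71), and Gm15998 and Efna3, an ephrin (2.45 and 3.23), although Efna3 had only 13.9 normalized counts with anti-ACBP and 1.68 with IgG. B230206H07Rik and Eps8l2 fell on both diets (-0.66 and -0.62 on MCD, -1.04 and -1.12 on chow). BC049987 and Treh, the gene of trehalase, start divergently and fell on both diets (-0.56 and -2.32 on MCD, -2.23 and -0.98 on chow). On chow Gm47544 rose with Apoa5 (0.51 and 0.48), Notumos with Notum, a Wnt inhibitor (0.68 and 0.49), and 4921516A02Rik with Pdxk, pyridoxal kinase (0.83 and 0.76). Opposite directions were seen for Gm19950 and Acsm1, an acyl-CoA synthetase (-0.69 and 0.92 on MCD), 0610031O16Rik and Adh7 (0.95 and -0.80 on MCD), and Mir22hg and Tlcd2 (0.50 and -1.12 on chow).

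Gm31583 and Bcl6, a transcriptional repressor, lie more than 5 kb apart and both rose on MCD (log2 1.39 and 1.73). On chow Gm31583 fell (log2 -1.54), and the value of Bcl6 was -0.97 (SE 0.53, adjusted p = 0.250). Promoters of 2 members that rose on MCD and fell on chow, 1810008I18Rik and Gm31583, are shown because both hold the letters AGGTCA. These are core letters in the sites of many nuclear receptors of the liver, not a whole site. The lines run 5′ to 3′ on the transcript strand from 250 bases before to 50 bases after the RefSeq start (GRCm38.p6), with the match in capitals (in Gm31583 on the other strand, read as TGACCT).
1810008I18Rik (chr7:65802787-65803086, plus strand): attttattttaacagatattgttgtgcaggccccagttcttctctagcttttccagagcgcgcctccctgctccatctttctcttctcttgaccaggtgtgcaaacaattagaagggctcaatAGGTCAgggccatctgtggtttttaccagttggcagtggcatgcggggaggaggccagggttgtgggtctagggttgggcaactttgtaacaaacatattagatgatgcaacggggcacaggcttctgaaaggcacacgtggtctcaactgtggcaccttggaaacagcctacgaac
Gm31583 (chr16:24090016-24090315, minus strand): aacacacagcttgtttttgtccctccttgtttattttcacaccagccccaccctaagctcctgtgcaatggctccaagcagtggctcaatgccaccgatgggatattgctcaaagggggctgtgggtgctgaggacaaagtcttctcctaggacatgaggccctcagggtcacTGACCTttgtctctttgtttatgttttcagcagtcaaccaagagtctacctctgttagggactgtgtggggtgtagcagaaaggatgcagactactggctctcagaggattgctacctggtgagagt

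The match spans 127 to 122 bases before the start of 1810008I18Rik and 77 to 72 bases before that of Gm31583. Searched on both strands, AGGTCA was in 22.5% of 80 promoters of members that rose on MCD and in 0 of 20 promoters of members that fell, against 16.3% of all 32851 promoters. TTCNNNGAA, a STAT-type motif, was in 7.5% and 10% of these 2 sets and 8.3% of all, and TGANTCA, an AP-1-type motif, in 10% and 0 of 20, against 7.81% of all. A promoter with a match is not a bound site, and some genes have several annotated starts. The motifs were chosen with earlier results known.

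Between diets, levels were compared as centred log2 ratios of group means, since the 2 tables were scaled separately and no test was possible. Without the antibody the lncRNAs lay lower on MCD than on chow relative to coding genes: the median centred ratio of MCD IgG over chow IgG was -0.33 for members and 0.01 for coding genes of the same abundance. A 2-fold ratio was passed by 61 members (24.2%), 12 higher and 49 lower, against 10.9% of all 10365 genes with a mean of 100 or more in both tables. With column totals set equal, 27 were higher and 27 lower. Under anti-ACBP the median ratio of MCD over chow was -0.17 for members, and 12 passed 2-fold (4.76%), 9 higher and 3 lower, against 1.9% of all. The requirement of 100 counts on both diets narrows these ratios for members and coding genes alike. The IgG ratio on MCD and the antibody fold change on MCD share the MCD IgG libraries, so they are given side by side only.

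**Figure D5:**
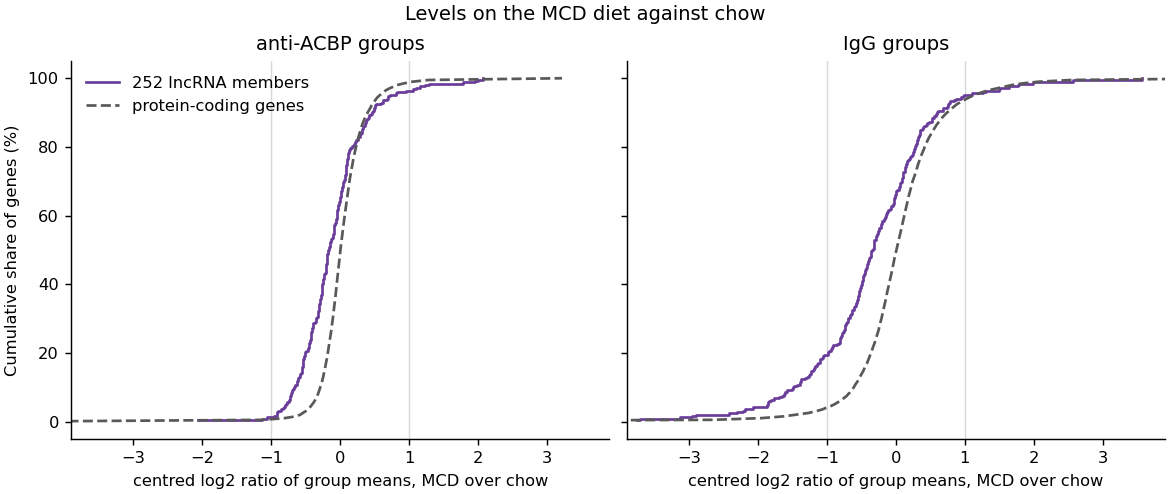
Cumulative share of genes (%) against the centred log2 ratio of group means, MCD over chow, in the anti-ACBP groups (left) and the IgG groups (right), for 252 lncRNAs (solid) and protein-coding genes of the same abundance (dashed, percentiles); grey lines mark 2-fold. In the IgG groups 49 lncRNAs lie left of the lower grey line, and in the anti-ACBP groups 3 do.

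The lowest IgG ratios were those of Gm31583 (-3.75), Gm15998 (-3.72), Gm15287 (-3.13), C4a (-2.95) and Gm16551 (-2.90). C4a, annotated here as lncRNA although the name is that of a complement gene, averaged 608.2 normalized counts in MCD livers with IgG and 3927 in chow livers with IgG, and 663.6 and 2250 under anti-ACBP; its antibody changes did not pass on either diet. Mice carry near-identical copies of complement C4, so its count is uncertain. The highest ratios were those of Gm10680 (3.57), Gm28037 (2.57), AI506816 (2.57), Gm19950 (1.99) and Neat1 (1.79). Under anti-ACBP the ratio of Neat1 was -0.0045, that of 1810008I18Rik 0.02, that of Gm10680 2.0 and that of AI506816 2.07.

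Of the 298 lncRNAs that reached a mean of 100 on MCD and the 287 on chow, 81 did so on 1 diet only. Just inside the floor were Gm44170 (100.2 on chow), 9330175E14Rik (100.4 on MCD) and Dancr (100.8 on MCD), and just outside 4933431E20Rik (99.98 on chow), Gm14097 (98.83 on chow) and Jpx (98.51 on MCD). All 252 members had a test in both tables. Among members, the transcript classes of GENCODE M21 gave these counts on MCD: 29 of 94 intergenic members rose and 12 fell, 22 of 68 antisense members rose and 4 fell, and 16 of 63 processed transcripts rose and 10 fell. Of all genes tested on MCD 14.7% rose and 16.2% fell. GENCODE M21 types 5 members as protein-coding, none of them called on either diet, and 1, Gm22146, as miscellaneous RNA. On chow 6 of the 94 intergenic members rose and 17 fell, and 6 of the 68 antisense members rose and 3 fell, where 5.58% of all genes tested rose and 6.46% fell. Without the members that overlap a coding gene and the ribosomal-like ones, 54 of 118 (45.8%) were called on MCD, 35 higher and 19 lower, and 26 (22.0%) on chow, 8 higher and 18 lower.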

How the data were processed

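Messenger RNA of mouse liver was sequenced; strand-specific libraries are stated per the labels' protocols. HISAT2 2.2.1, HTSeq 0.13.5, DESeq2 (no version) and the build mm39 are named per the submitters' processing notes. The authors deposited 1 table per diet. Its signal columns are normalized counts, per the file headers, as a mean over libraries and per group. Fold changes of anti-ACBP over IgG were deposited as log2 values with their SE, ending at -5 and 5, which no member reached. The deposited p-value columns hold a raw and a Benjamini-Hochberg adjusted p, rounded, with 1 where none was given. Means that single reads leave in the tables show 5 libraries per group on MCD (size factors 0.838 to 1.08) and 4 per group on chow (0.905 to 1.11), where the labels list 5. Nothing says that samples are separate animals, so p-values measure the spread between samples.

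Members, gene lists and motifs were chosen with earlier results of these data known. Adjusted p-values under 0.001 were recomputed from fold change and SE, which changed 0 calls. The diets were compared by a normal test of the difference of fold changes, adjusted over 14607 genes. Level ratios were centred on genes with means of 100 or more (0.26 for IgG and 0.30 for anti-ACBP). The planned count models were replaced by the authors' deposited test because no per-library values were used. The files carry no coordinates, so neighbours, exon lengths and contained small RNAs come from GENCODE M21 (GRCm38), in place of the files' own positions, and sequences from RefSeq (GRCm38.p6). Named genes were the 10 most abundant, the 10 up and 10 down on MCD and 6 and 6 on chow with the largest called changes, the 6 largest differences, the 5 highest and 5 lowest IgG diet ratios, list members and those next to the floor, of which 1 list member is not reported here; neighbours and examples beyond these were chosen after their values were seen. Python 3.11.15, pandas 2.3.3, numpy 2.4.6, scipy 1.17.1 and matplotlib 3.10.9 were used, and the tests were tested on simulated data.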

Additional observations from a re-analysis of the deposited data

Results flagged for a closer look

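The antibody effect differed between the diets for 43 of the lncRNAs named above, by the test of the difference of both log2 fold changes adjusted over all genes tested in both tables. The difference is the value on MCD minus that on chow, on the log2 scale. Single livers are not in the tables, so how many of them follow each direction cannot be given.

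The effect was more negative on MCD for these snoRNA hosts: 2410006H16Rik (-1.17, SE 0.23), Gas5 (-0.57, SE 0.15), Snhg1 (-0.66, SE 0.20), Snhg6 (-0.69, SE 0.21), Snhg12 (-0.59, SE 0.19) and Zfas1 (-0.64, SE 0.20). It was also more negative for Neat1 (-1.75, SE 0.30), Gm48275 (-1.65, SE 0.39), Gm10680 (-1.53, SE 0.38), Gm19950 (-1.49, SE 0.31), Gm12840 (-0.95, SE 0.28), Gm20559 (-0.87, SE 0.32), Gm17092 (-0.76, SE 0.29), Gm47544 (-0.75, SE 0.21), AC160336.1 (-0.69, SE 0.18), Gm48942 (-0.69, SE 0.27), Gm32856 (-0.67, SE 0.24) and Gm20400 (-0.60, SE 0.23). Adjusted p-values of these ran from 1.87e-07 for Neat1 to 0.0448 for Gm48942.

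The effect was more positive on MCD for all 9 members that rose there and fell on chow, namely AI480526 (0.82, SE 0.19), Gm16548 (1.35, SE 0.21), Gm17753 (0.94, SE 0.21), Gm15998 (3.46, SE 0.47), Gm31583 (2.93, SE 0.40), 1810008I18Rik (2.13, SE 0.22), 4732465J04Rik (1.92, SE 0.23), Gm2788 (1.71, SE 0.32) and BC024386 (1.64, SE 0.16). BC049987 fell on both diets, further on chow, with a difference of 1.67 (SE 0.60, adjusted p = 0.0283). The other more positive differences were those of Gm20632 (0.55, SE 0.19), 0610031O16Rik (0.81, SE 0.16), Gm26588 (0.85, SE 0.30), Gm20319 (0.88, SE 0.16), B430119L08Rik (1.15, SE 0.20), 0610005C13Rik (0.43, SE 0.13), 4833411C07Rik (0.85, SE 0.29), Tbx3os1 (1.25, SE 0.25), Gm31182 (1.49, SE 0.27), 1700018L02Rik (1.55, SE 0.47), 1700028E10Rik (1.76, SE 0.24), C730036E19Rik (1.85, SE 0.25), 4930481A15Rik (1.89, SE 0.24), Gm16551 (2.24, SE 0.46) and Gm15287 (2.62, SE 0.42), with adjusted p-values from 3.96e-13 for 4930481A15Rik to 0.0265 for Gm26588.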

How the results depend on the processing

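The tables hold group means and the authors' fold changes, so leaving out single libraries, another normalization of the counts and a count model could not be run. No paired analysis was possible because the columns carry group means and no replicate numbers. On MCD, 64 of 133 members with a mean of 200 or more, 426 of 2504 lncRNAs tested at any level (17%) and 54 of 118 members clear of coding genes and of ribosomal-like annotation were called, against 102 of 252. On chow the same limits gave 32, 83 of 1047 (7.93%) and 26, and a threshold of 0.01 gave 31, against 51. A ratio of 1.5-fold between diets was passed by 112 members under IgG and by 52 under anti-ACBP, against 61 and 12 past 2-fold. With column totals set equal, 77 of the 102 calls on MCD, 40 of the 51 on chow and 56 of the 79 differences were shared. Among 264 results for named genes, that scaling ended 21 calls and added 25 (the differences of 0610005C13Rik, Gm20632, Gm26588, 4833411C07Rik and BC049987, at 0.11, 0.22, 0.52, 0.53 and 1.35, were among those ended), the threshold of 0.01 ended 36, centring on abundant genes ended 3 and added 4, and adjusting over abundant genes added 2. No result turned its direction past the threshold under these settings. The difference between diets assumes that the deposited SEs are accurate for 5 and 4 libraries a group. Members near 100 counts had SEs that limit what could be called; the median SE was 0.18 on both diets.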

Other observations

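The 81 lncRNAs that reached a mean of 100 on 1 diet only, and so are not among the 252, also changed with anti-ACBP on MCD. Of the 35 that reached it on chow only, 25 rose on MCD and none fell (median log2 1.16), while on chow 2 rose and 4 fell (median 0.05). Gm35696 averaged 147.3 normalized counts in MCD livers with anti-ACBP and 26.8 with IgG (log2 2.45), and 327.8 and 281.9 in chow livers with anti-ACBP and IgG. Gm35986 rose on both diets (147.8 and 25.8 on MCD, log2 2.52; 225.8 and 99.8 on chow, log2 1.18). Of the 46 that reached it on MCD only, 3 rose and 20 fell on MCD (median -0.41), and of the 43 with a test on chow 2 rose and 1 fell. Gm19705 fell most (87.6 and 415.3, log2 -2.24), followed by AI662270 (51.1 and 211.6, log2 -2.05), Gm36283 (53.9 and 147.4, log2 -1.43) and Gm6135 (110.0 and 280.2, log2 -1.35). These 2 sets were chosen by a mean that the MCD groups enter, so their directions are partly set by that choice and are given as values only.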
